A study of Mus musculus with 9 samples.

Results

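Translation factors are the proteins that start, drive and pace protein synthesis on the ribosome. The genes described here encode initiation factors of the eIF1, eIF2, eIF2B, eIF3, eIF5 and eIF6 families. Others encode the elongation factors eEF1 and eEF2, or enzymes and partners that carry the same family symbols. The cap-binding eIF4 group, the eIF2 kinases and the Y-linked eIF2 gene were left out. Members were defined by gene symbol, on the single-gene probe sets of the Affymetrix Mouse 430 2.0 array. The symbols were chosen with earlier results of these data known. This gave 40 genes of 18193, measured by 97 probe sets. Eif1 itself was not among the 40, while its paralog Eif1b was. The probe set with the highest mean stood for its gene, and 39 of the 40 passed a filter that left 12715 genes in all. Eef2kmt, an eEF2 lysine methyltransferase, had signals of 2.24 to 27.0 over the 9 arrays and did not pass.

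The 3 groups of 3 arrays all came from BC3H1, a mouse brain tumour line with myogenic properties, grown with fetal bovine serum. The resistant group was RR1, a line selected over 6 months in 1 uM rapamycin and kept in that dose. The sensitive rapamycin group was parental BC3H1 given 100 nM rapamycin for 24 h, and the DMSO group was parental BC3H1 given the solvent for 24 h. RR1 is a single line, and a resistant group without the drug was not analysed here, so line, months of selection and drug cannot be told apart; the 2 rapamycin groups also differ in dose and time. Nothing in the labels says whether arrays within a group stem from separate cultures, so the p-values cover array-to-array spread only, which may be technical.

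Initiation places the ribosome on a start codon: eIF3 and the scanning factors eIF1 and eIF1A hold the small subunit open, eIF2 brings the initiator tRNA, and eIF5 and eIF5B release the factors and join the large subunit. eIF2B recharges eIF2 with GTP, and stress kinases slow initiation by blocking that step. In elongation, eEF1A delivers aminoacyl-tRNA and eEF2 moves the ribosome on. Rapamycin inhibits mTOR complex 1, a kinase that favours translation of mRNAs with a pyrimidine tract at their first bases, among which are many elongation factor and ribosomal protein mRNAs, and that restrains eEF2 kinase through S6 kinase.

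The arrays shared a trimmed mean of 250 in signal. Median signals were 33.3 to 44.2 on 8 arrays and 66.0 on the third DMSO array, which also correlated least with its own group (mean r = 0.956 over the tested genes, against 0.968 for both other DMSO arrays). The difference between the 3-prime and 5-prime Actb control probe sets was 0.33 ± 0.02 log2 units in the resistant cells, 0.19 ± 0.04 in rapamycin-treated sensitive cells and 0.17 ± 0.01 in the DMSO cells (SD, n = 3 each). Of 10 muscle-like markers, 9 were tested, and 8 were lower and 1 higher in resistant than in DMSO cells; their summed signal was 11230.2 to 13182 in the resistant, 40547 to 41128 in the sensitive rapamycin and 30989 to 40882 in the DMSO cells. Myod1 stayed below the filter. Summed signals of 4 astrocyte markers were 164 to 299, 227 to 243 and 118 to 254 in the same groups, with Gfap at 28.6 ± 13.3 in the resistant, 50.5 ± 6.75 in the sensitive rapamycin and 36.9 ± 36.9 in the DMSO cells. Slc1a3, the brightest of them, averaged 156 ± 49.3, 135 ± 2.08 and 67.2 ± 5.72 in that order. It was called higher than in DMSO cells in resistant cells (log2 change 1.02 ± 0.22) and in sensitive rapamycin cells (0.86 ± 0.22). Gfap and Aqp4 were not called in any comparison, and S100b stayed below the filter. Neuron, leukocyte, endothelium and epithelium markers summed to at most 378.445 on any array. Of these, Epcam was called lower in sensitive rapamycin than in DMSO cells (log2 change -1.21 ± 0.38, adjusted p = 0.0197). Its DMSO signals were 85.9, 62.6 and, on the third array, 267. In bulk RNA, fewer cells of a type and less RNA per cell cannot be told apart.

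In sensitive cells, 24 h of rapamycin lowered 12 of the 39 factors and raised 6, with a median log2 change of -0.03 against 0.03 over all genes tested. Genes were called at an adjusted p under 0.05 in a limma fit on log2(signal + 16); of all 12715 genes, 15.2% were called lower and 20.4% higher. The falls were in 3 of 5 eIF2B subunits, both tested eIF2 subunits, Eif3b, Eif6, Eef1e1 and Eef1d, with Eif1a, Eif1ad and Eef1akmt2. The rises were in Eif3f, Eif3h and Eif3k, Eef2, Eif5b and Eif5a2. The only change of at least 2-fold was the fall of Eif1ad. Without the third DMSO array 15 members were lower and 6 higher.

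The resistant cells had 22 of the 39 factors higher and 5 lower than the DMSO cells, with a median of 0.34 against -0.07 over all genes. Over all genes 25.9% were called higher and 25.8% lower. Eif5b and Eef1e1 were higher by at least 2-fold, though the log2 change of Eif5b was as low as 0.73 under the alternatives. Against sensitive rapamycin cells, 24 factors were higher and 2, Eif1b and Eif5a2, were lower; the median was 0.31 against -0.08, and the shares over all genes were 26.4% higher and 30.1% lower. Here 7 members were at least 2-fold higher and 1, Eif5a2, at least 2-fold lower. The share of all genes at 2-fold was not counted in any of the 3 comparisons. These 2-fold numbers therefore cannot be set against it. Where 3 changes are given together below, they are for sensitive rapamycin against DMSO cells, resistant against DMSO cells and resistant against sensitive rapamycin cells, in that order. All 3 comparisons share groups of arrays, so they are not independent of each other. The higher Actb 3-prime to 5-prime difference and the muscle-like markers of the resistant arrays, lower except for Myog, moved with both resistant comparisons. Their part in the result was not tested. Centring arrays on the 75th percentile gave 25 members higher and 2 lower against DMSO cells and 25 and 2 against sensitive rapamycin cells, where it moved the median of all genes by 0.13; quantile normalization gave 21 and 8, and 24 and 8. Without the third DMSO array 22 were higher and 7 lower against DMSO cells, and 24 and 4 against sensitive rapamycin cells.

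**Figure D1:**
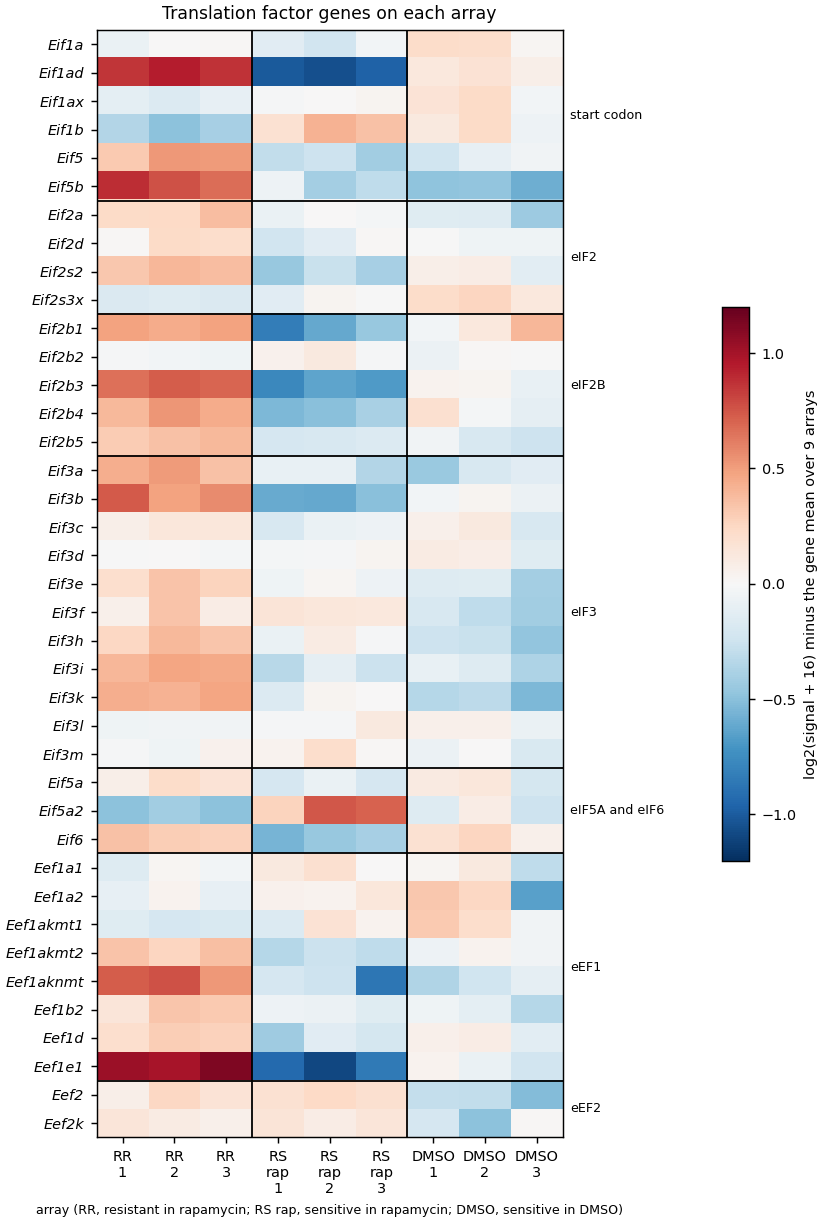
Each row is 1 of the 39 tested genes, ordered by role, and each column 1 array; colour gives log2(signal + 16) minus the gene's mean over 9 arrays. Eif1ad and Eef1e1 are darkest, high on the 3 resistant arrays and low on the 3 sensitive rapamycin arrays, with Eif2b1, Eif2b3, Eif2b4 and Eif3b in the same order and Eif5a2 in the opposite one.

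**Figure D2:**
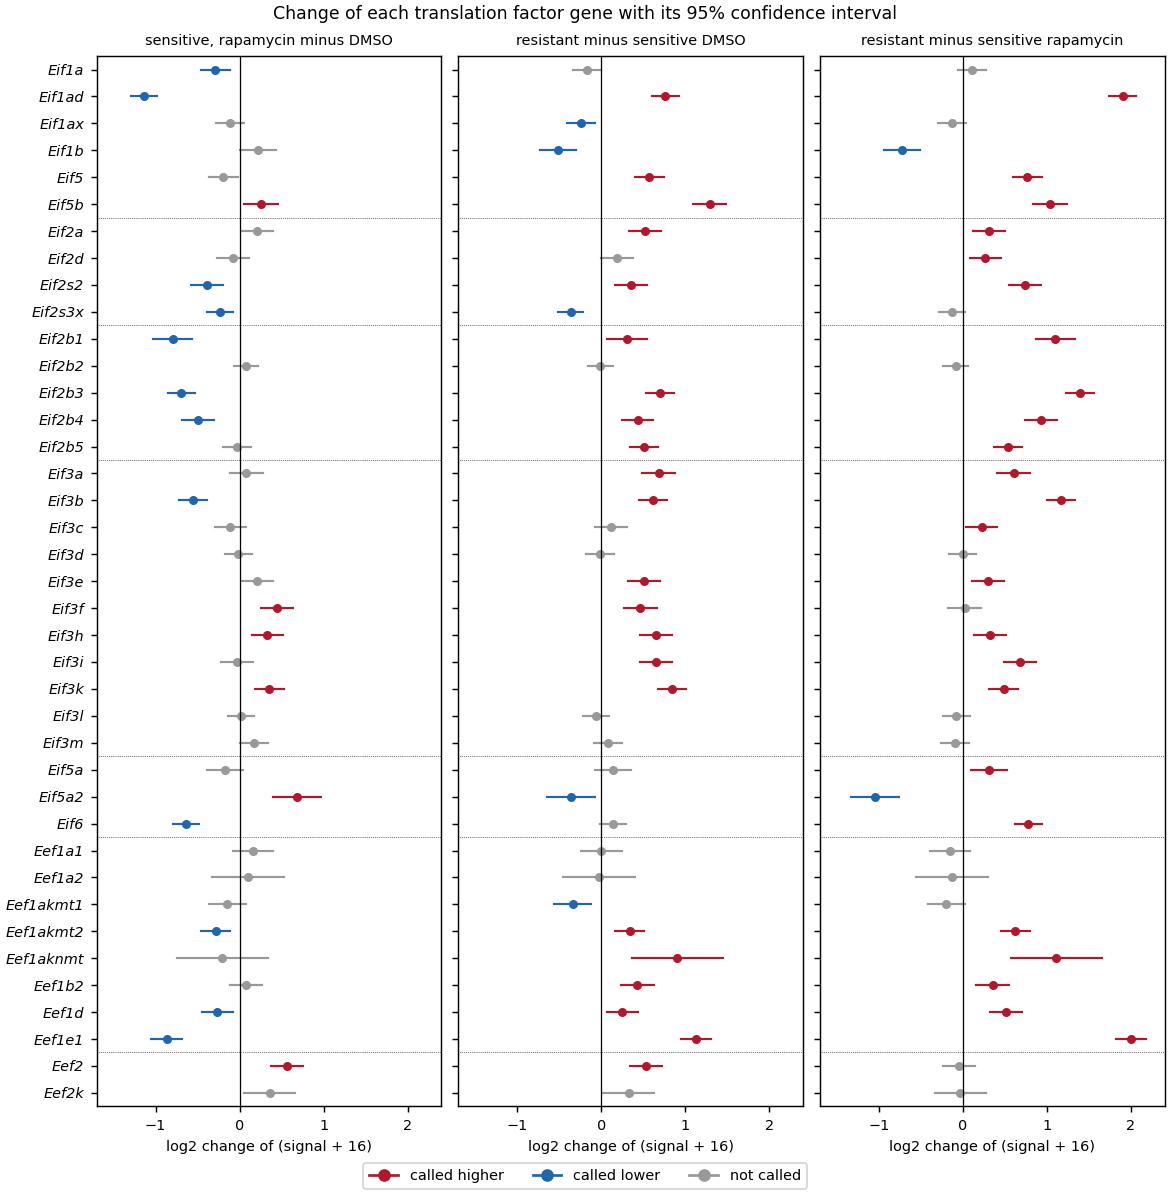
Points are log2 changes of (signal + 16) in the 3 comparisons and bars their 95% confidence intervals from the limma fit (n = 3 arrays per group); red genes were called higher, blue lower and grey not called. Of 39 genes, 6 are red and 12 blue on the left, 22 and 5 in the middle, and 24 and 2 on the right.

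The promoter windows of some members hold an E-box, and these are shown because the genes that share it moved in different directions. RefSeq (GRCm38.p6) gave 39 promoter windows for 32 of the members, from 250 bases before to 50 bases after the annotated start. CACGTG, the E-box bound by Myc and by TFE factors among others, was present in 11 of the 39 windows, belonging to 9 genes, some of whose windows overlap. It was in 7.15% of all 32851 windows and in 9.42% of the 13092 windows of genes tested on the arrays. By gene, 9 of 32 members had at least 1 E-box, against 11.3% of 10260 tested genes. The motif reads the same on both strands, and the capitals below mark it, with 12 bases on each side.
Eif3a (chr19:60790654-60790683, minus strand): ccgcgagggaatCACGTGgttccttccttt
Eif3f (chr7:108934335-108934364, plus strand): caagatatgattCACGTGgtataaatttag
Eif3k (chr7:28981915-28981944, minus strand): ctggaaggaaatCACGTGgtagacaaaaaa
Eef1aknmt (chr1:162548475-162548504, minus strand): gtgtggctgctgCACGTGgggcgcggaccg
Eef2 (chr10:81176576-81176605, plus strand): acccggcgccgtCACGTGacgcacccaacc
Eif1b (chr9:120492570-120492599, plus strand): cgtgcggacggtCACGTGgcggcggcgcgc
Eif5a2, upstream site (chr3:28781123-28781152, plus strand): actaatccgcagCACGTGgggttgccaggg
Eif5a2, downstream site (chr3:28781148-28781177, plus strand): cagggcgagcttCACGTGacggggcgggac
Of these genes, Eif3a, Eif3f, Eif3k, Eef1aknmt and Eef2 were higher in resistant than in DMSO cells, and Eif1b and Eif5a2 were lower. Eef2k and Eif5a hold the motif too and were not called in that comparison. The match is a description of letters and not of binding.

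A C followed by at least 4 pyrimidines at the annotated first base, the form of a 5-prime terminal oligopyrimidine tract, was present in the windows of Eif3f and Eif2s3x, 2 of 32 members, against 3.01% of tested genes. Capitals mark the tract, after the 15 bases before the start.
Eif3f (chr7:108934400-108934439, plus strand): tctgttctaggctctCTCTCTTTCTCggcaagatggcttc
Eif2s3x (chrX:94212627-94212666, minus strand): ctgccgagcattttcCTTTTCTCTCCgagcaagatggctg
The mRNA of Eif3f rose in rapamycin and that of Eif2s3x fell. These arrays measure mRNA levels, not the translation that such tracts are known for, and a start annotated a few bases away would hide a tract. The element TGATGNAA, a form of the site of ATF4 and its partners, was found on the reverse strand in Eif2s3x and in 1 window of Eef2k, with 2.81% of tested genes holding it on either strand. The whole Eif3f window (chr7:108934165-108934464, plus strand), with the E-box and the tract in capitals, is as follows.
Eif3f: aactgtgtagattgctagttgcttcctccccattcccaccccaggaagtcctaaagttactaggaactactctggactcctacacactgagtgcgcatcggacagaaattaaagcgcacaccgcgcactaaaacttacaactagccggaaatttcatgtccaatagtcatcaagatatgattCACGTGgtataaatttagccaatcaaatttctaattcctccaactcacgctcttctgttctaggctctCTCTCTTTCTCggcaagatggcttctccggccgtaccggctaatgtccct
The whole Eif3k window (chr7:28981839-28982138, minus strand), with the E-box in capitals, belongs to the eIF3 subunit with the largest rise against DMSO cells.
Eif3k: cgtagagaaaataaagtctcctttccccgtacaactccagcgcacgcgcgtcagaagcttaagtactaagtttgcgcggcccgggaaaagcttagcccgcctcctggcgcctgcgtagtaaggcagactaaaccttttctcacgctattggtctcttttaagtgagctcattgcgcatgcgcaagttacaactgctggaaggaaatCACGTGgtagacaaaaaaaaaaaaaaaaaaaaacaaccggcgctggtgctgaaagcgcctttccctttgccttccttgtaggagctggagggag

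Among the genes grouped under start codon selection and subunit joining, Eif1ad had the widest spread between groups. It was placed there by its symbol alone and encodes a protein with an eIF1A-like domain. Its signals were 1522, 1618 and 1538 in the resistant cells, 406, 395 and 418 in rapamycin-treated sensitive cells, and 915, 941 and 878 in the DMSO cells. The 3 groups were apart, with the resistant cells highest and the sensitive rapamycin cells lowest. The log2 change was -1.13 ± 0.07, adjusted p = 2.09e-09, in sensitive rapamycin against DMSO cells, 0.76 ± 0.07 (adjusted p = 1.43e-07) in resistant against DMSO cells and 1.90 ± 0.07 (adjusted p = 4.97e-13) between the resistant and sensitive rapamycin cells. Its second probe set changed by -0.67 ± 0.14 (adjusted p = 0.00123), 0.33 ± 0.14 (adjusted p = 0.0646) and 1.00 ± 0.14 (adjusted p = 8.3e-06) in the same comparisons. Eif5b encodes the GTPase that joins the ribosomal subunits. Its signals were 1483, 1359 and 1279 in the resistant cells, 764, 594 and 639.8 in rapamycin-treated sensitive cells, and 565, 568 and 523 in the DMSO cells. The resistant arrays lay far above both sensitive groups, which were close to each other without overlapping. Eif5b was higher in resistant than in DMSO cells by 1.29 ± 0.10, adjusted p = 4.37e-09, and than in sensitive rapamycin cells by 1.03 ± 0.10, adjusted p = 3.95e-08. The rise in sensitive rapamycin cells was small (0.26 ± 0.10, adjusted p = 0.0445) and its call was lost without the filter (adjusted p = 0.0533), under quantile normalization (0.0694), with 75th percentile centring (0.106), without a variance trend (0.118), when leaving out the second resistant array (0.062), the third resistant array (0.0539), the first sensitive rapamycin array (0.216), the third sensitive rapamycin array (0.0634), the first DMSO array (0.0657), the second DMSO array (0.0639) and the third DMSO array (0.105).

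Eif5 encodes the GTPase-activating protein of eIF2. It had signals of 2084, 2406 and 2384 in the resistant cells, 1357, 1405 and 1249.9 in rapamycin-treated sensitive cells, and 1416, 1560.0 and 1625 in the DMSO cells. All resistant arrays were above both sensitive groups. Eif5 was higher by 0.57 ± 0.08, adjusted p = 1.18e-05, than in DMSO cells and by 0.77 ± 0.08, adjusted p = 2.27e-07, than in sensitive rapamycin cells; its change in sensitive cells was -0.19 ± 0.08 (adjusted p = 0.0734), which passed with its probe sets averaged (adjusted p = 0.0342) and when leaving out the first DMSO array (0.0412). Eif1b, a close relative of the start codon gatekeeper eIF1, went the other way. Its signals were 384, 348 and 371 in the resistant cells, 563, 664 and 633 in rapamycin-treated sensitive cells, and 539, 584 and 473 in the DMSO cells. The resistant arrays were below all others, and the sensitive groups overlapped. The change was -0.51 ± 0.10 (adjusted p = 0.000383) against DMSO cells and -0.73 ± 0.10 (adjusted p = 6.77e-06) against sensitive rapamycin cells, and 0.22 ± 0.10 (adjusted p = 0.112) in sensitive cells. Of the 2 eIF1A genes, the X-linked Eif1ax had 4195, 4075 and 4261 in the resistant cells, 4506, 4576 and 4659 in rapamycin-treated sensitive cells, and 5105, 5344 and 4440.0 in the DMSO cells. Its resistant arrays lay below both sensitive groups, which overlapped. It was lower against DMSO cells by a log2 change of -0.24 ± 0.08 (adjusted p = 0.0145), a call lost with 75th percentile centring (adjusted p = 0.236), with its probe sets averaged (0.199), when leaving out the second resistant array (0.0634), the first DMSO array (0.0556) and the second DMSO array (0.075). In sensitive cells Eif1ax changed by -0.11 ± 0.08 (adjusted p = 0.305) and between the rapamycin groups by -0.13 ± 0.08 (adjusted p = 0.166). It passed in sensitive cells under quantile normalization (adjusted p = 0.0277) and when leaving out the third DMSO array (0.0198), and between the rapamycin groups under quantile normalization (adjusted p = 8.36e-05) and when leaving out the third DMSO array (0.0412).

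The autosomal Eif1a had signals of 1229, 1307 and 1317 in the resistant cells, 1181, 1111 and 1272 in rapamycin-treated sensitive cells, and 1521, 1512 and 1326 in the DMSO cells. Both rapamycin groups were just below the DMSO arrays and overlapped each other. Eif1a fell in sensitive rapamycin cells by a log2 change of -0.29 ± 0.08 (adjusted p = 0.0088), and changed by -0.17 ± 0.08 (adjusted p = 0.0778) in resistant against DMSO cells, which passed under quantile normalization (adjusted p = 0.00813) and when leaving out the third DMSO array (0.0151). Its other probe set was called higher there, at 0.26 ± 0.09 (adjusted p = 0.026). The change between the rapamycin groups, 0.11 ± 0.08 (adjusted p = 0.251), passed with 75th percentile centring (adjusted p = 0.0331) and with its probe sets averaged (0.00885).

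Of the genes that carry initiator tRNA, Eif2s2 fell in rapamycin and was highest in the resistant line. It encodes the beta subunit of eIF2. Its signals were 12926, 13633 and 13402 in the resistant cells, 7547, 8588 and 7824 in rapamycin-treated sensitive cells, and 10888, 10994 and 9447 in the DMSO cells. None of the groups overlapped. The log2 changes were -0.39 ± 0.09 (adjusted p = 0.0024) for sensitive rapamycin against DMSO cells, 0.35 ± 0.09 (adjusted p = 0.00282) for resistant against DMSO cells and 0.74 ± 0.09 (adjusted p = 1.17e-06) between the rapamycin groups. All 6 of its probe sets were called higher in both resistant comparisons, and 5 were called lower in sensitive rapamycin cells. The gamma subunit gene Eif2s3x, on the X chromosome, did not follow it. It had 2960.3, 3003 and 2966 in the resistant cells, 3036, 3419 and 3339.7 in rapamycin-treated sensitive cells, and 3883, 3987 and 3655 in the DMSO cells. The DMSO arrays were highest and the resistant arrays lowest, with no overlap. Eif2s3x was lower in resistant than in DMSO cells, at -0.37 ± 0.07 (adjusted p = 0.000351), and all 3 of its probe sets were called lower there. Its fall in sensitive cells (-0.23 ± 0.07, adjusted p = 0.0166) lost its call without a variance trend (adjusted p = 0.0545), when leaving out the first sensitive rapamycin array (0.0747), the first DMSO array (0.0517) and the second DMSO array (0.0634). The change between the rapamycin groups, -0.13 ± 0.07 (adjusted p = 0.137), passed under quantile normalization (adjusted p = 0.00143), with its probe sets averaged (0.0132) and when leaving out the first sensitive rapamycin array (0.0496). The alpha subunit gene was not analysed here.

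Eif2a encodes eIF2A, a separate protein that can bind initiator tRNA and is no subunit of eIF2. Its signals were 963, 970.4 and 1064 in the resistant cells, 775, 820.0 and 808 in rapamycin-treated sensitive cells, and 741, 734 and 601 in the DMSO cells. The resistant arrays were highest and the DMSO arrays lowest. Eif2a was higher in resistant than in DMSO cells by 0.52 ± 0.09, adjusted p = 8.64e-05, and than in sensitive rapamycin cells by 0.31 ± 0.09, adjusted p = 0.0061, while its change in sensitive cells was 0.21 ± 0.09 (adjusted p = 0.0763). Eif2d, a factor of noncanonical initiation and ribosome recycling, changed by -0.08 ± 0.09 (adjusted p = 0.533), 0.19 ± 0.09 (adjusted p = 0.0926) and 0.27 ± 0.09 (adjusted p = 0.0165) in the 3 comparisons. Its change against DMSO cells passed with 75th percentile centring (adjusted p = 0.0222) and when leaving out the first resistant array (0.0395). Its call against sensitive rapamycin cells was lost with its probe sets averaged (adjusted p = 0.425), when leaving out the second resistant array (0.082), the third resistant array (0.0686) and the first sensitive rapamycin array (0.072). The next brightest probe set of Eif2d was called higher in resistant cells in both comparisons. Its changes were 0.54 ± 0.11 (adjusted p = 0.000716) against DMSO and 0.71 ± 0.11 (adjusted p = 3.24e-05) against sensitive rapamycin cells. The dimmer ones that passed the filter were not called.

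Of 5 eIF2B subunits, 3 fell in sensitive rapamycin cells, and 4 were higher in resistant cells than in either sensitive group. Over all genes 15.2% were lower in sensitive rapamycin cells. Resistant cells had 25.9% of all genes higher than DMSO cells and 26.4% higher than sensitive rapamycin cells. The counts of these few subunits were not tested against the shares. Eif2b3 encodes the gamma subunit, which with epsilon forms the catalytic arm of this exchange factor. It had signals of 1318, 1383 and 1353 in the resistant cells, 478, 529 and 509 in rapamycin-treated sensitive cells, and 853, 849 and 777 in the DMSO cells. The groups were widely apart. The log2 change was -0.69 ± 0.08 (adjusted p = 1.87e-06) in sensitive cells, 0.70 ± 0.08 (adjusted p = 7.11e-07) for resistant against DMSO cells and 1.39 ± 0.08 (adjusted p = 4.93e-11) between the rapamycin groups. Eif2b1 encodes the alpha subunit, through which phosphorylated eIF2 is sensed. Its signals were 989, 964 and 986 in the resistant cells, 389, 453 and 509.8 in rapamycin-treated sensitive cells, and 686, 769.7 and 935 in the DMSO cells. The DMSO arrays varied more than the others and lay between the rapamycin groups. The changes were -0.80 ± 0.11 (adjusted p = 2.19e-05), 0.30 ± 0.11 (adjusted p = 0.0295) and 1.10 ± 0.11 (adjusted p = 1.23e-07) in the same order. The call against DMSO cells was lost under quantile normalization (adjusted p = 0.092), without a variance trend (0.0982), when leaving out the first resistant array (0.0726), the second resistant array (0.0571), the third resistant array (0.0722), the first DMSO array (0.155) and the second DMSO array (0.0769).

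Eif2b4, for the regulatory delta subunit, had signals of 1005, 1113 and 1045 in the resistant cells, 523, 537 and 580.1 in rapamycin-treated sensitive cells, and 876, 753 and 709 in the DMSO cells. Its groups were again in the order resistant, DMSO and sensitive rapamycin, from high to low. The changes were -0.50 ± 0.09 (adjusted p = 0.000308), 0.43 ± 0.09 (adjusted p = 0.000579) and 0.93 ± 0.09 (adjusted p = 7.35e-08). Eif2b5, for the catalytic epsilon subunit, did not pass in sensitive cells (-0.03 ± 0.08, adjusted p = 0.829) and was higher in resistant cells, by 0.51 ± 0.08, adjusted p = 3.78e-05, against DMSO and 0.54 ± 0.08, adjusted p = 1.47e-05, against sensitive rapamycin cells. With its 2 probe sets averaged, neither call held (adjusted p = 0.822 and 0.528); the other probe set averaged 26.9 in the resistant, 36.6 in the sensitive rapamycin and 46.9 in the DMSO cells, near the filter limit of 22.2. Eif2b2, for the beta subunit, depended on the probe set. The brightest changed by 0.08 ± 0.07 (adjusted p = 0.445), -0.01 ± 0.07 (adjusted p = 0.905) and -0.09 ± 0.07 (adjusted p = 0.313). Another, dimmer on average, had means of 1486, 839 and 505 in resistant, sensitive rapamycin and DMSO cells and changed by 0.61 ± 0.22 (adjusted p = 0.0483), 1.53 ± 0.22 (adjusted p = 2.12e-05) and 0.92 ± 0.22 (adjusted p = 0.00205). Its sensitive rapamycin arrays were uneven, at 960, 1123 and 435. The third of them lay below every DMSO array (526, 520 and 469). With its probe sets averaged Eif2b2 was higher in resistant cells, by 0.54 against DMSO cells (adjusted p = 0.000262) and 0.37 against sensitive rapamycin cells (adjusted p = 0.00402).

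**Figure D3:**
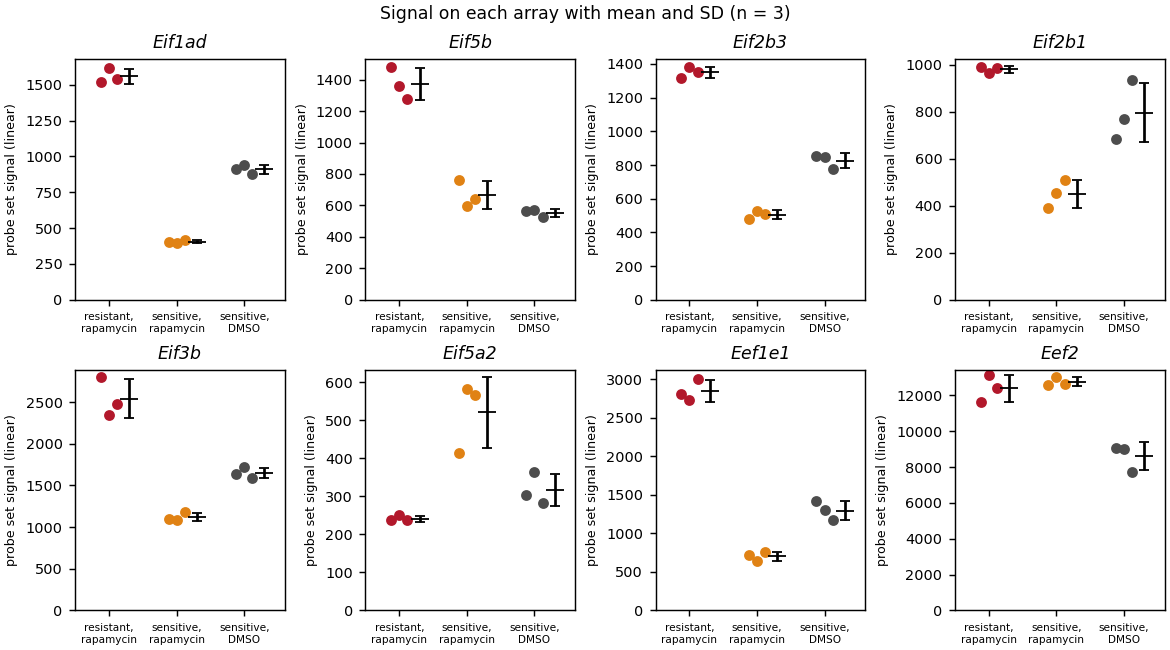
Points are the signals of 8 genes on each array, in linear units from 0, with the mean and SD of 3 arrays beside them. Eif1ad, Eif2b1, Eif2b3, Eif3b and Eef1e1 are highest in resistant and lowest in sensitive rapamycin cells, Eif5a2 has the reverse order, Eif5b is high in resistant cells only and Eef2 is lowest in DMSO cells.

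The eIF3 complex, the largest initiation factor and the scaffold on the small ribosomal subunit, had 11 tested subunits. In sensitive rapamycin cells 3 rose and 1 fell, near the shares over all genes of 20.4% higher and 15.2% lower. In resistant cells 7 were higher than in DMSO cells and 7 higher than in sensitive rapamycin cells, and none was called lower in either comparison except under quantile normalization. Over all genes 25.9% were higher against DMSO cells and 26.4% against sensitive rapamycin cells. The counts were not tested against these shares. Eif3b, for the subunit that anchors Eif3i and Eif3g, was the subunit that fell in rapamycin. Its signals were 2802, 2343 and 2480.2 in the resistant cells, 1096, 1089 and 1178 in rapamycin-treated sensitive cells, and 1639.9, 1717 and 1591 in the DMSO cells. All groups were apart. The log2 change was -0.55 ± 0.08 (adjusted p = 2.55e-05) in sensitive cells, 0.62 ± 0.08 (adjusted p = 3.34e-06) for resistant against DMSO cells and 1.17 ± 0.08 (adjusted p = 5.36e-10) between the rapamycin groups. Eif3k, for a peripheral subunit, moved up in both. It had 5225, 5146 and 5355 in the resistant cells, 3439, 3939 and 3861 in rapamycin-treated sensitive cells, and 3030.5, 3097 and 2649 in the DMSO cells. The resistant arrays were highest and the DMSO arrays lowest. Its changes were 0.36 ± 0.08 (adjusted p = 0.00195), 0.84 ± 0.08 (adjusted p = 1.05e-07) and 0.49 ± 0.08 (adjusted p = 4.45e-05).

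Eif3a, for the largest subunit, had signals of 4046, 4261 and 3821 in the resistant cells, 2822, 2805 and 2344 in rapamycin-treated sensitive cells, and 2199.6, 2622 and 2731 in the DMSO cells. The sensitive groups overlapped and the resistant arrays were above them. Eif3a was higher in resistant cells by 0.68 ± 0.09, adjusted p = 7.24e-06, against DMSO and 0.61 ± 0.09, adjusted p = 1.93e-05, against sensitive rapamycin cells, and changed by 0.08 ± 0.09 (adjusted p = 0.561) in sensitive cells. The MPN-domain pair Eif3f and Eif3h rose in sensitive rapamycin cells, by 0.45 ± 0.09, adjusted p = 0.000951, and 0.33 ± 0.09, adjusted p = 0.00717; the call of Eif3h was lost with 75th percentile centring (adjusted p = 0.0549). Both were also higher in resistant than in DMSO cells, by 0.47 ± 0.09, adjusted p = 0.000346, and 0.65 ± 0.09, adjusted p = 7.42e-06. Between the rapamycin groups Eif3h was higher (0.32 ± 0.09, adjusted p = 0.00454) and Eif3f did not pass (0.02 ± 0.09, adjusted p = 0.867). Eif3i was higher in resistant cells against both sensitive groups (0.65 ± 0.09 against DMSO and 0.68 ± 0.09 against sensitive rapamycin cells), as was Eif3e (0.51 ± 0.09 and 0.30 ± 0.09). The second call of Eif3e was lost when leaving out the second resistant array (adjusted p = 0.0542). In sensitive cells Eif3e changed by 0.21 ± 0.09 (adjusted p = 0.0866) and passed under quantile normalization (adjusted p = 0.00596).

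The other subunits moved little. Eif3d, which can bind the cap of some mRNAs, changed by -0.01 ± 0.08, -0.02 ± 0.08 and -0.0039 ± 0.08 in the 3 comparisons, with a 95% interval of -0.18 to 0.15 for resistant against DMSO cells. Eif3l changed by 0.02 ± 0.07, -0.06 ± 0.07 and -0.08 ± 0.07, and Eif3m by 0.17 ± 0.08, 0.08 ± 0.08 and -0.09 ± 0.08; none of these passed (adjusted p from 0.0997 to 0.973). Under quantile normalization Eif3d and Eif3l were lower in resistant cells in both comparisons, at -0.20 (adjusted p = 0.00142) and -0.20 (adjusted p = 0.00465) against DMSO cells and -0.16 (adjusted p = 0.00626) and -0.20 (adjusted p = 0.00365) against sensitive rapamycin cells. That setting also called Eif3m higher in sensitive rapamycin than in DMSO cells, at 0.17 (adjusted p = 0.0348), and lower in resistant than in sensitive rapamycin cells, at -0.20 (adjusted p = 0.00894). Eif3c was higher between the rapamycin groups (0.23 ± 0.09, adjusted p = 0.0375), a call lost without the filter (adjusted p = 0.0678), without a variance trend (0.0864), when leaving out the first resistant array (0.0604), the second resistant array (0.109), the third resistant array (0.105), the first sensitive rapamycin array (0.133), the second sensitive rapamycin array (0.0635) and the third sensitive rapamycin array (0.0559). Its change in sensitive cells, -0.11 ± 0.09 (adjusted p = 0.381), passed under quantile normalization (adjusted p = 0.00705) and when leaving out the third DMSO array (0.0175).

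Eif6, whose protein keeps the large subunit from joining the small one and takes part in its assembly, fell in sensitive cells given rapamycin. Its signals were 4388, 4216 and 4176 in the resistant cells, 2334, 2500.1 and 2602 in rapamycin-treated sensitive cells, and 3906, 4118 and 3579 in the DMSO cells. The sensitive rapamycin arrays lay far below the others, and the resistant arrays were just above the DMSO arrays. The log2 changes were -0.64 ± 0.08 (adjusted p = 3.21e-06), 0.14 ± 0.08 (adjusted p = 0.13) and 0.78 ± 0.08 (adjusted p = 6.94e-08) in sensitive cells, in resistant against DMSO cells and between the rapamycin groups. The second of these passed with 75th percentile centring (adjusted p = 0.0393). The 2 eIF5A genes, whose proteins carry the modified lysine hypusine and help ribosomes past difficult peptide bonds, did not move alike. Eif5a2, the gene with narrower tissue expression, had 237, 251 and 237 in the resistant cells, 414, 582 and 568 in rapamycin-treated sensitive cells, and 303, 364 and 283 in the DMSO cells. The sensitive rapamycin arrays were highest and the resistant arrays lowest, with no overlap. Eif5a2 rose by 0.68 ± 0.13, adjusted p = 0.000641, in sensitive cells and was lower in resistant cells, by a log2 change of -0.36 ± 0.13 (adjusted p = 0.0323) against DMSO and -1.04 ± 0.13 (adjusted p = 2.63e-06) against sensitive rapamycin cells. Its call against DMSO cells was lost under quantile normalization (adjusted p = 0.118), with 75th percentile centring (0.128), without a variance trend (0.0736), when leaving out the first resistant array (0.0774), the second resistant array (0.0511), the third resistant array (0.0783) and the second DMSO array (0.147).

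The widely expressed Eif5a had signals of 13831, 15351 and 14705 in the resistant cells, 11449.8, 12424 and 11434 in rapamycin-treated sensitive cells, and 14150.2, 14407 and 11370.2 in the DMSO cells. The DMSO arrays overlapped both other groups. Eif5a was higher in resistant than in sensitive rapamycin cells by 0.31 ± 0.10, adjusted p = 0.0132, a call lost when leaving out the second resistant array (adjusted p = 0.0693) and the third sensitive rapamycin array (0.0542). It changed by -0.17 ± 0.10 (adjusted p = 0.216) in sensitive cells, which passed under quantile normalization (adjusted p = 4.34e-06), with its probe sets averaged (0.00644) and when leaving out the third DMSO array (0.00297), and by 0.14 ± 0.10 (adjusted p = 0.256) in resistant against DMSO cells. Its other probe set was called lower in sensitive rapamycin cells, at -0.56 ± 0.09 (adjusted p = 0.000128), and higher in both resistant comparisons, at 0.28 ± 0.09 (adjusted p = 0.0172) and 0.83 ± 0.09 (adjusted p = 3.86e-07).

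Within the eEF1 family the largest changes were in Eef1e1, which encodes a scaffold of the multi-tRNA synthetase complex and no part of the elongation cycle itself. Its signals were 2801, 2730.0 and 3003 in the resistant cells, 713, 636 and 755 in rapamycin-treated sensitive cells, and 1413, 1296 and 1171 in the DMSO cells. The groups were far apart, with the resistant arrays highest and the sensitive rapamycin arrays lowest. The log2 change was -0.87 ± 0.09 (adjusted p = 4e-07) in sensitive cells, 1.13 ± 0.09 (adjusted p = 5.86e-09) for resistant against DMSO cells and 2.00 ± 0.09 (adjusted p = 1.49e-12) between the rapamycin groups, the largest among the 39 members. The core factor Eef1a1, which delivers aminoacyl-tRNA, had 16919, 19153 and 18361 in the resistant cells, 20381, 21464 and 18854 in rapamycin-treated sensitive cells, and 19154, 20368 and 15212 in the DMSO cells. All groups overlapped. Eef1a1 changed by 0.16 ± 0.11, 0.00 ± 0.11 and -0.16 ± 0.11, with an adjusted p of 0.317, 0.994 and 0.266; the 95% interval against DMSO cells was -0.24 to 0.24. Under quantile normalization Eef1a1 was lower in resistant than in DMSO cells, at -0.19 (adjusted p = 0.000131). Between the rapamycin groups its change passed under quantile normalization (adjusted p = 0.000129) and when leaving out the third DMSO array (0.0461).

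Eef1a2, the form known from muscle and neurons, had signals of 188, 208 and 189 in the resistant cells, 211, 209 and 224 in rapamycin-treated sensitive cells, and 257, 244 and 123 in the DMSO cells. The third DMSO array was far below the other DMSO arrays, and the DMSO group overlapped both others. Its changes were 0.10 ± 0.20 (adjusted p = 0.74), -0.03 ± 0.20 (adjusted p = 0.924) and -0.13 ± 0.20 (adjusted p = 0.62), and the second passed when leaving out the third DMSO array (adjusted p = 0.039). Of the exchange factor subunits that recharge eEF1A, Eef1b2 was higher in resistant cells, by 0.43 ± 0.09, adjusted p = 0.000797, against DMSO and 0.35 ± 0.09, adjusted p = 0.00332, against sensitive rapamycin cells, and changed by 0.08 ± 0.09 (adjusted p = 0.568) in sensitive cells. Eef1d, for the delta subunit, had 5441, 5804 and 5736 in the resistant cells, 3518, 4326 and 4081 in rapamycin-treated sensitive cells, and 4930.3, 5031 and 4329.6 in the DMSO cells. The groups did not overlap, with the sensitive rapamycin arrays lowest. Its changes were -0.26 ± 0.09 (adjusted p = 0.0264), 0.25 ± 0.09 (adjusted p = 0.0233) and 0.51 ± 0.09 (adjusted p = 6.32e-05). Eef1d was the only member with probe sets called in opposite directions: a dim one, with means of 121 in the resistant and 186 in the DMSO cells, was lower in resistant than in DMSO cells, at -0.55 ± 0.21 (adjusted p = 0.04). The first call was lost without a variance trend (adjusted p = 0.0926), when leaving out the first sensitive rapamycin array (0.146), the first DMSO array (0.0877) and the second DMSO array (0.0964). The second was lost under quantile normalization (adjusted p = 0.4), without a variance trend (0.0781), with its probe sets averaged (0.203), when leaving out the second resistant array (0.0818), the third resistant array (0.0713) and the third DMSO array (0.0596), and with its probe sets averaged the value turned to -0.19. The third was lost with its probe sets averaged (adjusted p = 0.181), where the value was 0.19. The gamma subunit gene shared its probe sets with another symbol and was not used here.

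Enzymes that methylate lysines of eEF1A were dimmer and moved in different ways. Eef1aknmt had 135, 139 and 114 in the resistant cells, 63.1, 60.4 and 33.9 in rapamycin-treated sensitive cells, and 55.0, 61.1 and 68.5 in the DMSO cells. The resistant arrays lay well above the sensitive ones, whose groups overlapped. It was higher in resistant cells by 0.90 ± 0.26, adjusted p = 0.00649, against DMSO and 1.11 ± 0.26, adjusted p = 0.00113, against sensitive rapamycin cells, and changed by -0.21 ± 0.26 (adjusted p = 0.581) in sensitive cells. With its 3 probe sets averaged, the call against DMSO cells was lost (adjusted p = 0.149). Eef1akmt2 had 746, 704 and 760.0 in the resistant cells, 459.8, 488 and 470.3 in rapamycin-treated sensitive cells, and 561, 606 and 570.3 in the DMSO cells. The resistant arrays were highest and the sensitive rapamycin arrays lowest. Its changes were -0.28 ± 0.08 (adjusted p = 0.0124), 0.34 ± 0.08 (adjusted p = 0.00233) and 0.62 ± 0.08 (adjusted p = 3.96e-06), and the first call was lost when leaving out the second DMSO array (adjusted p = 0.0535). Eef1akmt1 was lower in resistant than in DMSO cells (-0.34 ± 0.11, adjusted p = 0.0122), a call lost with 75th percentile centring (adjusted p = 0.0886), with its probe sets averaged (0.804) and when leaving out the first DMSO array (0.0685). It changed by -0.14 ± 0.11 (adjusted p = 0.329) in sensitive cells and by -0.20 ± 0.11 (adjusted p = 0.13) between the rapamycin groups, the last passing when leaving out the first sensitive rapamycin array (adjusted p = 0.0343). The next brightest probe set of Eef1akmt1 went the other way between the rapamycin groups, called higher at 0.26 ± 0.10 (adjusted p = 0.046). That probe set was called lower in sensitive cells, at -0.35 ± 0.10 (adjusted p = 0.0165). Its change in resistant against DMSO cells, -0.09 ± 0.10 (adjusted p = 0.525), was not called.

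Eef2, the translocase, was higher in both rapamycin groups than in the DMSO cells. Its signals were 11662, 13168 and 12418 in the resistant cells, 12608, 13045 and 12629.5 in rapamycin-treated sensitive cells, and 9083, 9038 and 7716 in the DMSO cells. The rapamycin groups overlapped each other and lay above every DMSO array. The log2 change was 0.57 ± 0.09 (adjusted p = 8.19e-05) in sensitive cells and 0.53 ± 0.09 (adjusted p = 8.61e-05) for resistant against DMSO cells; both comparisons use the same DMSO arrays. Between the rapamycin groups it was -0.04 ± 0.09 (adjusted p = 0.736), with a 95% interval of -0.23 to 0.15. Eef2k, for the kinase that inactivates eEF2, changed by 0.36 ± 0.14 (adjusted p = 0.0608) and 0.33 ± 0.14 (adjusted p = 0.0651) against DMSO cells and by -0.03 ± 0.14 (adjusted p = 0.878) between the rapamycin groups. The first passed when leaving out the third DMSO array (adjusted p = 0.0101) and the second under quantile normalization (adjusted p = 0.0162), with 75th percentile centring (0.0153) and when leaving out the third DMSO array (0.0103).

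Several probe sets of a gene did not always give the same call. Of 24 members with more than 1 probe set above the filter, all probe sets had the same call in 13 in sensitive cells, in 11 in resistant against DMSO cells and in 12 between the rapamycin groups. For 6 members, Eef2k, Eif2b2, Eif2s3x, Eif3c, Eif3m and Eif5a, the brightest probe set has a suffix that marks probes shared with other transcripts, so related genes or pseudogenes may add to its signal.

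**Figure D4:**
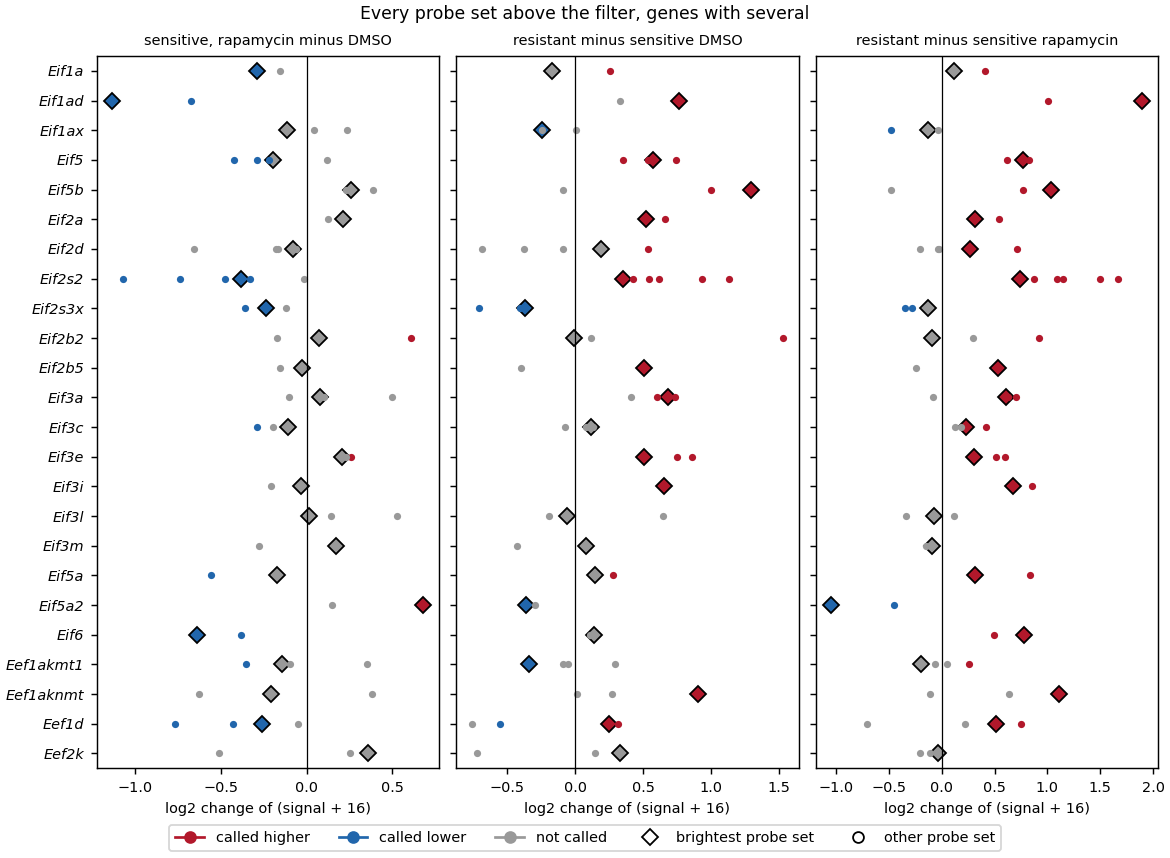
Each point is 1 probe set of the 24 genes with several above the filter, placed at its log2 change of (signal + 16) in each comparison; diamonds are the brightest probe sets and colours give the calls in a separate fit of all probe sets, where Eif5b on the left is not called. Eif2s2 lies to the right of 0 with all 6 probe sets in the middle and right panels. Eif2b2 has probe sets called higher and not called in each panel, and Eef1d has both directions of call in the middle panel.

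Related genes were counted beside the members, and the shares over all genes apply to every list below. In sensitive rapamycin against DMSO cells 20.4% of all genes were called higher and 15.2% lower. Resistant cells had 25.9% higher and 25.8% lower than DMSO cells, and 26.4% higher and 30.1% lower than sensitive rapamycin cells. The lists hold few genes, and no count was tested against these shares. Of 10 genes for translation termination and recycling, 3 were lower and 0 higher in sensitive rapamycin cells, 5 higher and 3 lower in resistant than in DMSO cells, and 6 higher and 3 lower between the rapamycin groups. Abce1, the ribosome-splitting ATPase, averaged 4629.6 ± 91.1 in the resistant cells, 1988 ± 157 in rapamycin-treated sensitive cells and 2774 ± 177 in the DMSO cells (SD, n = 3 each). The release factor gene Gspt1 averaged 3181 ± 193 in the resistant cells, 1421 ± 138 in rapamycin-treated sensitive cells and 1896 ± 208 in the DMSO cells, and Denr, a recycling factor, 2811 ± 46.6 in the resistant cells, 1415 ± 108 in rapamycin-treated sensitive cells and 1982 ± 114 in the DMSO cells. Abce1, Gspt1 and Denr changed by -0.48 ± 0.08, -0.41 ± 0.09 and -0.48 ± 0.07 in sensitive cells and by 0.74 ± 0.08, 0.75 ± 0.09 and 0.50 ± 0.07 in resistant against DMSO cells. With the mean of their probe sets the falls of Abce1 and Denr lost their calls (adjusted p = 0.876 and 0.0625), as did the rise of Denr (0.239), and this setting left 2 of the 10 genes higher against DMSO cells.

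Enzymes that make hypusine on eIF5A and diphthamide on eEF2 fell in 5 of 9 cases in sensitive rapamycin cells (3 with the mean of probe sets) and rose in 0. In resistant cells 4 of 9 were higher than in DMSO cells and 7 of 9 higher than in sensitive rapamycin cells, with 0 lower in either. Dph2, of the first diphthamide step, changed by -0.48 ± 0.23 (adjusted p = 0.122), 0.56 ± 0.23 (adjusted p = 0.0503) and 1.04 ± 0.23 (adjusted p = 0.000803), the second passing with a pseudocount of 64 (adjusted p = 0.0423), under quantile normalization (0.0165), with 75th percentile centring (0.0167), with its probe sets averaged (0.0413) and when leaving out the third DMSO array (0.0031). Of the other diphthamide genes, Dph3 averaged 998 ± 17.0 in the resistant cells, 429 ± 9.08 in rapamycin-treated sensitive cells and 676 ± 64.3 in the DMSO cells, and Dph5 866 ± 53.6 in the resistant cells, 397 ± 28.7 in rapamycin-treated sensitive cells and 623 ± 79.3 in the DMSO cells. Their changes were -0.63 ± 0.09 and -0.63 ± 0.10 in sensitive cells, 0.56 ± 0.09 and 0.47 ± 0.10 in resistant against DMSO cells, and 1.19 ± 0.09 and 1.10 ± 0.10 between the rapamycin groups. With the mean of probe sets Dph3 lost its call in sensitive cells (adjusted p = 0.0738) and Dph5 its call against DMSO cells (adjusted p = 0.525).

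Among 10 genes that set the phosphorylation of eIF2, 2 rose and 1 fell in sensitive rapamycin cells. These counts are near the shares over all genes, 20.4% higher and 15.2% lower. Without the third sensitive rapamycin array 2 fell, and with the mean of probe sets 0 fell. In resistant cells 2 were higher and 4 lower than in DMSO cells, and 3 higher and 5 lower than in sensitive rapamycin cells. Eif2ak2, for the RNA-activated and interferon-induced kinase PKR, averaged 207 ± 0.0250 in the resistant cells, 987 ± 53.2 in rapamycin-treated sensitive cells and 1051 ± 53.9 in the DMSO cells. It was lower in resistant cells by a log2 change of -2.26 ± 0.08 (adjusted p = 5.79e-13) against DMSO cells. Impact, which restrains the kinase GCN2, averaged 92.5 ± 5.69 in the resistant cells, 704 ± 16.7 in rapamycin-treated sensitive cells and 397 ± 68.5 in the DMSO cells; it changed by 0.81 ± 0.13 (adjusted p = 7.2e-05), -1.92 ± 0.13 (adjusted p = 1.08e-09) and -2.73 ± 0.13 (adjusted p = 4.36e-12) in the 3 comparisons. Dnajc3, for an inhibitor of PKR and PERK, changed by -1.15 ± 0.09 (adjusted p = 5.56e-09) against DMSO cells.

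Of 9 mitochondrial translation factors, 2 fell and 0 rose in sensitive rapamycin cells, and 6 were higher and 0 lower in resistant than in DMSO cells (1 lower without the third resistant array); between the rapamycin groups 5 were higher and 1 lower (0 lower without the first or second resistant array or any 1 sensitive rapamycin array). Tsfm, the mitochondrial exchange factor, averaged 478 ± 18.6 in the resistant cells, 215 ± 37.6 in rapamycin-treated sensitive cells and 347 ± 9.85 in the DMSO cells. The elongation factor genes Gfm1 and Gfm2 changed by 0.51 ± 0.07 and 0.81 ± 0.14 in resistant against DMSO cells, and with its probe sets averaged Gfm1 lost that call (adjusted p = 0.0939). In the cap-binding eIF4 group of 12 tested genes, 2 rose and 4 fell in sensitive rapamycin cells (7 fell under quantile normalization or without the third DMSO array). In this group 6 were higher and 2 lower in resistant than in DMSO cells (2 higher with the mean of probe sets), and 6 higher and 3 lower between the rapamycin groups. Eif4g3, a scaffold of the cap-binding complex, averaged 24.2 ± 10.2 in the resistant cells, 197 ± 7.35 in rapamycin-treated sensitive cells and 152 ± 27.5 in the DMSO cells. Eif4ebp1, for the repressor that mTOR complex 1 phosphorylates, averaged 7107 ± 342 in the resistant cells, 3553 ± 246 in rapamycin-treated sensitive cells and 5850.2 ± 676 in the DMSO cells. Eif4b, for a helicase cofactor, averaged 5242 ± 94.2 in the resistant cells, 4686 ± 128 in rapamycin-treated sensitive cells and 2991 ± 241 in the DMSO cells. In resistant against DMSO cells the changes of Eif4g3, Eif4ebp1 and Eif4b were -2.09 ± 0.24 (adjusted p = 9.72e-07), 0.29 ± 0.09 (adjusted p = 0.0135) and 0.81 ± 0.07 (adjusted p = 7.16e-08). The call of Eif4ebp1 was lost under quantile normalization (adjusted p = 0.066), without a variance trend (0.0575), with its probe sets averaged (0.275) and when leaving out the second resistant array (0.0613).

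**Figure D5:**
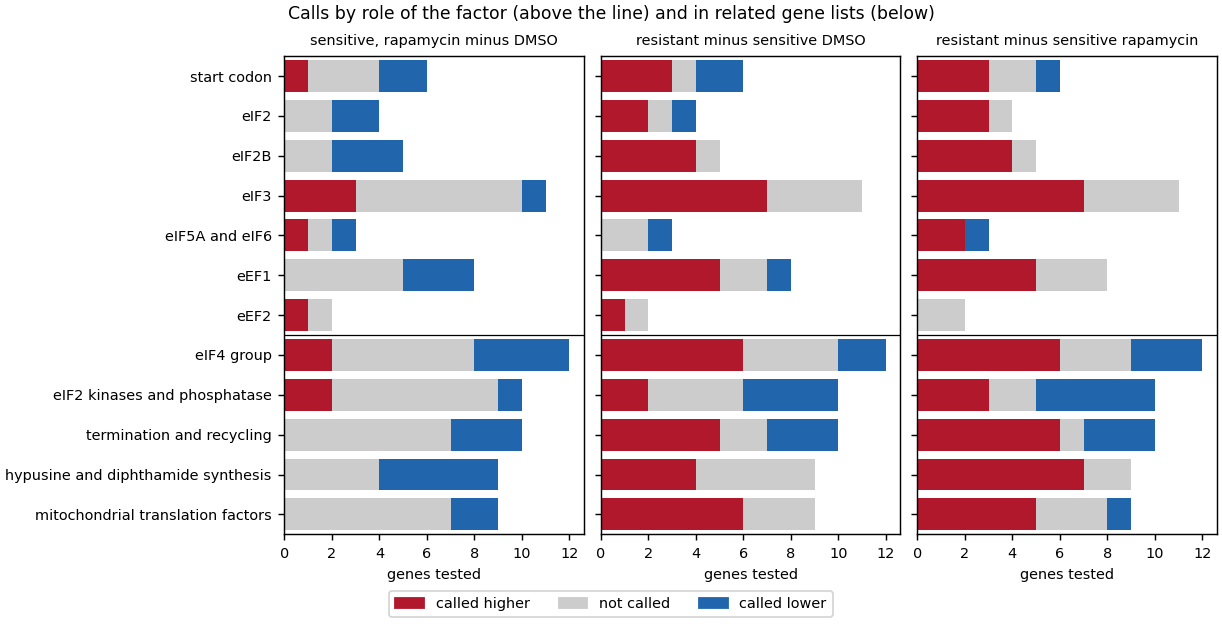
Bars count the tested genes of each role (above the line) and of each related list (below it) that were called higher, not called or called lower in the 3 comparisons. Of the roles, eIF2B shows 3 of 5 lower in sensitive rapamycin cells and 4 of 5 higher in both resistant comparisons, and eIF3 shows 7 of 11 higher in both. Over all genes 15.2% were lower in sensitive rapamycin cells, and 25.9% and 26.4% were higher in the middle and right comparisons.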

How the data were processed

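Total RNA of 9 BC3H1 samples was hybridised to 1-colour Affymetrix arrays. The deposited intensity of each probe set is a linear signal that the authors made with GCOS 1.4, per the submitters' processing notes; the summary method is not given in the sources used here, and each array's mean, with 2% trimmed at each end, came to 250 in the deposited values. Groups came from the sample titles, and 0 other per-sample columns were present.

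Of 45101 probe sets, 64 were controls, 34945 had 1 gene symbol in the platform annotation, 932 several and 9160 none. Only those with 1 symbol stood for genes. Values given for other probe sets of a gene came from a separate limma fit. It held all non-control probe sets above the filter, whatever their symbols, and its p-values were adjusted over those probe sets. Probe sets shared by several symbols include those of Eif3j1, Eif3j2 and Eef1g. Values were taken as log2(signal + 16), which understates changes of dim genes. Only means over the 40th percentile of all non-control probe sets, or a signal of 22.2, were kept, and the brightest stood for its gene. With limma 3.58.1 in R 4.3.3, 1 model with 3 group means was fitted to all 9 arrays, with a variance trend and Benjamini-Hochberg adjustment over 12715 genes in each of the 3 comparisons; changes are given ± SE. The fit was tested on simulated data. An exact permutation test of 3 against 3 arrays cannot go below p = 0.1 and was not used. The number of arrays limits the precision.

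Genes described with the value on every array were, in each role, up to 3 called members with the largest change in any comparison, plus paralog pairs and members with probe sets called in opposite directions; in related lists up to 3 called genes with the largest change were named. The members and lists were chosen with earlier results of these data known. A list of 8 further methyltransferases matched 1 gene, Vcpkmt, and is not described. The 17 alternatives were other pseudocounts (1 and 64), no filter, quantile normalization, 75th percentile centring, no variance trend, the mean of probe sets, the replicate number as a block, and each array left out. Promoters came from RefSeq (GRCm38.p6).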

Additional observations from a re-analysis of the deposited data

How the results depend on the processing

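Of 18 member calls in sensitive rapamycin against DMSO cells, 13 were made under all 17 alternatives, as were 20 of 27 in resistant against DMSO cells and 20 of 26 between the rapamycin groups. The number of members lower in resistant than in DMSO cells, 5, was 8 under quantile normalization, 2 with 75th percentile centring and 3 with the mean of probe sets, and 3 to 7 with each array left out in turn. The number lower than in sensitive rapamycin cells, 2, was 8 under quantile normalization and 2 to 4 with each array left out. Leaving out arrays gave 9 to 15 members lower and 5 to 6 higher in sensitive cells, 20 to 22 higher against DMSO cells and 20 to 24 higher between the rapamycin groups. Quantile normalization turned the value of Eef1a1 against DMSO cells to -0.19 (adjusted p = 0.000131). The mean of probe sets turned Eef1d there to -0.19 (adjusted p = 0.203), Eif2b2 to 0.54 there and 0.37 between the rapamycin groups, Gspt2 against DMSO cells to 0.0104, and Nck1 in sensitive cells to 0.52 (adjusted p = 0.0444); probe sets of these genes differed. The cause of the other changes was not tested.

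With the replicate number as a block, the members' counts stayed at 6 higher and 12 lower, 22 and 5, and 24 and 2, and the calls over all genes were 4382, 6448 and 7100 in the 3 comparisons, against 4523, 6581 and 7186 without it. The block changed no call of a member in any of the 3 comparisons. Deviations of same-numbered arrays correlated at -0.0845 to 0.0151, against -0.0496 to 0.075 for different numbers. Whether arrays with the same number shared a culture, day or batch cannot be told from these values. Genes near the filter limit, Eef2kmt among them, are limited by signal over background.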
